A study of Drosophila melanogaster with 10 samples.

Results

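The cytochrome P450 genes of the fruit fly were examined in late embryos that overexpressed dacapo in part of their cells. Members were all rows of the expression table whose name begins with Cyp and a digit, which gave 82 of 15422 rows. Of these, 81 encode P450 enzymes. The remaining row, Cyp1, encodes a cyclophilin, a peptidyl-prolyl isomerase that shares only the letters of the symbol, and is left out of every P450 count. A total of 50 P450 genes reached 1 RPKM (read count scaled by transcript length in kilobases and by mapped megareads) in 2 or more of the 10 libraries and were tested. The other 31 stayed below that level.

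PolyA RNA of whole embryos at stages 15 to 16, grown at 25 °C, was sequenced in 5 genotypes with 2 libraries each, which the labels call independent samples. Dacapo, the only p21/p27-type protein of the fly, stops the cell cycle by inhibiting cyclin-dependent kinases. All embryos carried the prospero-Gal4 driver, which is active in only some cells of the embryo, among them neural precursors. Embryos named dap here carried pros-Gal4 with UAS-dap, the wild-type form. Those named dapCRL4, dapPCNA and dapCDI carried pros-Gal4 with UAS-dap[CRL4], UAS-dap[PCNA] or UAS-dap[CDI], forms that the labels describe as stabilized. Control embryos carried the driver alone, pros-Gal4/+. The gene dap itself was listed at 85.8 and 83.4 RPKM in dap embryos, 81.0 and 75.7 in dapCRL4 embryos, 70.7 and 73.3 in dapPCNA embryos and 170.2 and 156 in dapCDI embryos, against 70.5 and 70.7 RPKM in control embryos. Only dapCDI stood far above the control, and whether transgene reads entered this row is not given in the sources used here. Estimated depth was 17.0 to 25.6 counted megareads per library.

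P450 enzymes are heme proteins that insert oxygen into small hydrophobic molecules. In insects they make and break down hormones such as ecdysone, build cuticular hydrocarbons, and detoxify plant compounds and insecticides. Most sit in the endoplasmic reticulum and take electrons from the P450 reductase Cpr, while a mitochondrial branch takes them from ferredoxins and the ferredoxin reductase dare. Insect P450s are grouped into the CYP2, mitochondrial, CYP3 and CYP4 clans. The CYP2 and mitochondrial clans hold most of the known hormone enzymes. The CYP3 and CYP4 clans hold large families that often lie in clusters of neighbouring genes.

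A few genes made up most of the P450 signal of these embryos. In the control libraries 3 P450 genes averaged 100 RPKM or more, 15 lay between 10 and 100, 28 between 1 and 10, and 34 above 0 but under 1 RPKM. Cyp9b1 was listed at 0 in both control libraries. The summed P450 level averaged 1138 ± 4.79 RPKM in dap embryos, 1106 ± 34.5 in dapCRL4 embryos, 1129 ± 18.8 in dapPCNA embryos and 1087 ± 2.08 in dapCDI embryos, against 1056 ± 3.35 RPKM in the control (SD, n = 2 each). All 8 transgene libraries lay above both control libraries in this sum, which ran from 1053 to 1142 RPKM. As a share of all RPKM this order did not hold. The share was 0.108% in dap 2, 0.106% and 0.108% in the dapCDI libraries and 0.114% to 0.120% in the other transgene libraries, against 0.112% and 0.111% in the control, so that dap 2 and both dapCDI libraries lay below both controls. The 10 highest P450 genes of each library supplied 72.4% to 75.6% of its sum. Between 45 and 48 P450 genes reached 1 RPKM in a library. Fewer cells of a type and less RNA per cell cannot be told apart in such whole-embryo values.

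**Figure D1:**
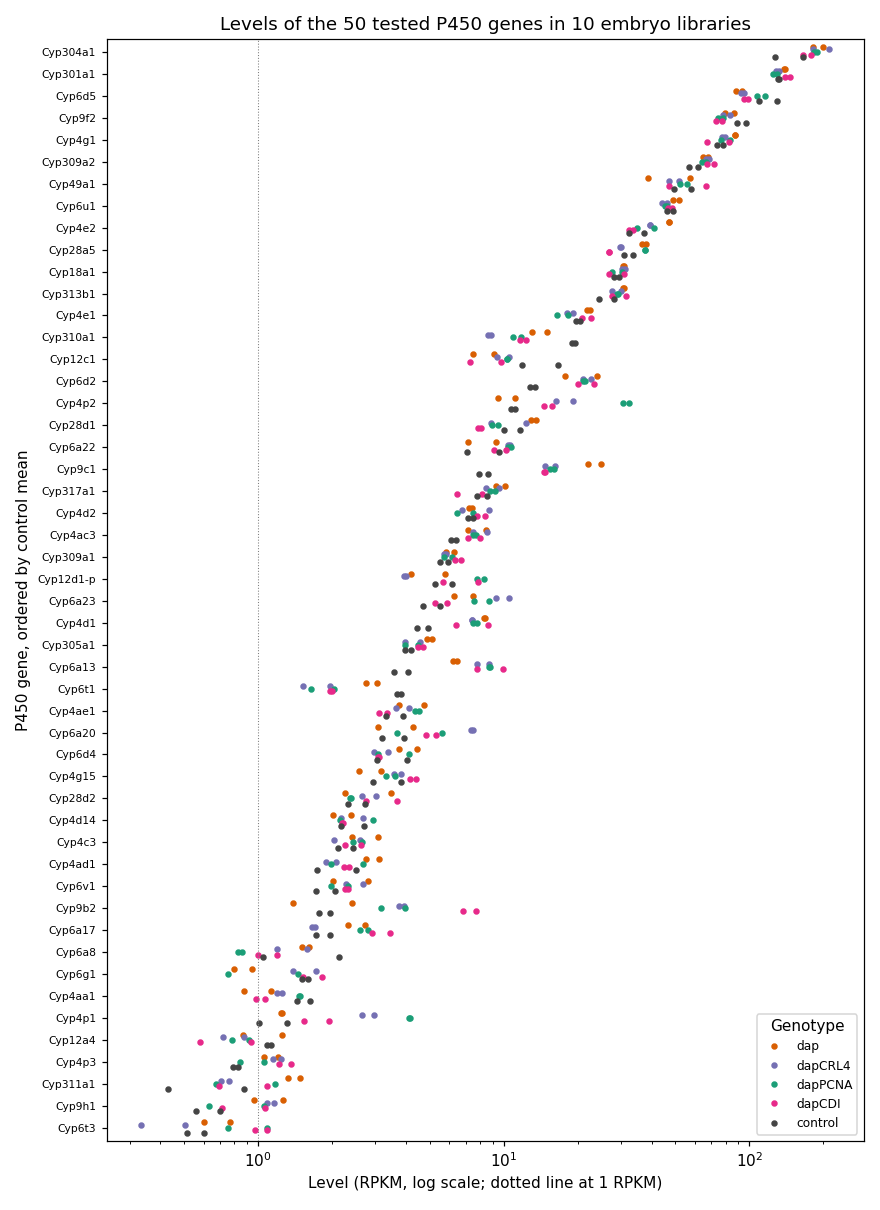
Level of each of the 50 tested P450 genes in every library, in RPKM on a log scale, with genes ordered from top to bottom by their control mean. Each point is 1 library, coloured by genotype, and the dotted line marks 1 RPKM. The levels run from Cyp304a1 and Cyp301a1, both above 100 RPKM, down to genes near 1 RPKM, and the genotypes of most genes lie close together.

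The most abundant P450 genes were Cyp304a1 and Cyp301a1, and neither passed the test in any comparison. Cyp304a1 (FBgn0038095, arm 3R, positions 12963791 to 12965923, plus strand, BDGP6), of the CYP2 clan, had 181 and 199 RPKM in dap embryos, 181 and 211 in dapCRL4 embryos, 189 and 183 in dapPCNA embryos and 179 and 166 in dapCDI embryos, against 165 and 128 RPKM in control embryos. All 8 transgene libraries lay above both control libraries, dapCDI 2 only just. Its log2 change of 0.39 in dap (SE 0.119) did not pass the test (limma adjusted p = 0.0600), nor did its change in the other forms. Cyp301a1 (FBgn0033753, arm 2R, positions 12566185 to 12569061, plus strand), a mitochondrial P450 needed for the formation of normal cuticle, had 139 and 140.2 RPKM in dap embryos, 129 and 132 in dapCRL4 embryos, 129 and 125 in dapPCNA embryos and 147 and 139.6 in dapCDI embryos, against 131 and 133 RPKM in control embryos. Its level was nearly flat, with a 95% interval of −0.01 to 0.25 log2 for dapCDI against the control, and its exons overlap those of Ak6 on the other strand.

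The ecdysteroid-inactivating enzyme Cyp18a1 and the hydrocarbon enzyme Cyp4g1 were both well expressed and did not pass the test in any comparison. Cyp18a1 (FBgn0010383, arm X, positions 18688538 to 18693042, minus strand) had 30.8 and 30.7 RPKM in dap embryos, 31.2 and 30.3 in dapCRL4 embryos, 30.3 and 27.5 in dapPCNA embryos and 26.8 and 31.0 in dapCDI embryos, against 28.1 and 29.4 RPKM in control embryos. The genotypes overlapped, and the 95% intervals of the change against the control were −0.10 to 0.29 log2 in dap and −0.19 to 0.20 in dapCDI. Cyp4g1 (FBgn0010019, arm X, positions 467057 to 469335, minus strand), which makes cuticular hydrocarbons in oenocytes, had 87.4 and 87.8 RPKM in dap embryos, 77.7 and 79.6 in dapCRL4 embryos, 83.5 and 76.4 in dapPCNA embryos and 67.0 and 82.7 in dapCDI embryos, against 77.8 and 73.6 RPKM in control embryos. Both dap libraries were the highest and dapCDI 1 was the lowest, with a log2 change of 0.21 in dap (limma adjusted p = 0.157). The 95% interval of its change in dapCDI was −0.24 to 0.19 log2. Cyp303a1, needed for sensory bristle structure, stayed between 0.550 and 1.1 RPKM and was not tested.

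Ecdysone itself is made by P450s whose fly symbols do not begin with Cyp. Of these Halloween enzymes phm, dib, sad, shd and spo had rows, with a summed level of 5.60 to 7.81 RPKM per library. Only phm and sad were high enough to test, and neither passed in any comparison with limma, phm having an unadjusted p under 0.05 against the control. Among 7 other genes of the pathway 5 were tested and 0 were called, Eo and Npc1a among them, with 2 at an unadjusted p under 0.05 against the control. Cyp6t3, which in the larval prothoracic gland contributes to ecdysone synthesis, was tested but ran only from 0.334 to 1.09 RPKM and was not called.

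The P450 genes best known from insecticide work were low. Cyp6g1 (FBgn0025454, arm 2R, positions 12185667 to 12188431, plus strand), whose overexpression gives resistance to DDT, had 0.795 and 0.940 RPKM in dap embryos, 1.72 and 1.38 in dapCRL4 embryos, 1.45 and 0.755 in dapPCNA embryos and 1.53 and 1.82 in dapCDI embryos, against 1.60 and 1.51 RPKM in control embryos. The 2 dap libraries and dapPCNA 2 were the lowest, and the log2 change of −0.85 in dap did not pass the test (limma adjusted p = 0.113). Cyp6g2, its neighbour on the opposite strand with overlapping exons, stayed between 0.436 and 0.949 RPKM. Cyp12a4, linked to lufenuron resistance, ran from 0.582 to 1.25 RPKM, and Cyp6a2 and Cyp6w1 never reached 1 RPKM.

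Cyp12d1-p and Cyp12d1-d are near-identical neighbouring copies of a mitochondrial P450 that many foreign chemicals induce, so reads may be split between them and both values are uncertain. Cyp12d1-p (FBgn0050489, arm 2R, positions 11117225 to 11121884, minus strand) had 5.75 and 4.18 RPKM in dap embryos, 4.01 and 3.92 in dapCRL4 embryos, 8.32 and 7.77 in dapPCNA embryos and 5.65 and 7.84 in dapCDI embryos, against 5.25 and 6.14 RPKM in control embryos. The dapPCNA libraries were among the highest and the dapCRL4 libraries the lowest, but no comparison passed (limma adjusted p = 0.341 for dapPCNA and 0.228 for dapCRL4, both against the control). Cyp12d1-d (FBgn0053503, arm 2R, positions 11123658 to 11125647, minus strand) was listed at 0 in all 8 transgene libraries, against 1.31 and 0.511 RPKM in the control, which corresponds to about 61.0 and 23.3 reads. It reached 1 RPKM in 1 library only and was not tested.

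Of the 31 P450 genes that were not tested, 29 never reached 1 RPKM, and Cyp303a1 and Cyp12d1-d reached it in 1 library each. A further 8 tested genes reached it in some libraries only. Just inside the limit, Cyp6t3 had 2 libraries at 1 RPKM or more, and Cyp12a4 had 3. In all, 8 untested genes were listed at 0 in some libraries, and none was listed at 0 in all 10. The cyclophilin Cyp1 had 832 and 872 RPKM in dap embryos, 757 and 758 in dapCRL4 embryos, 694 and 736 in dapPCNA embryos and 841 and 708 in dapCDI embryos, against 744 and 670.2 RPKM in control embryos, and was not called in any comparison with limma.

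Across the clans, CYP3 held 36 P450 genes, of which 25 were tested, and CYP4 held 32, of which 17 were tested. The mitochondrial clan had 5 of 9 genes tested and the CYP2 clan 3 of 4. The median control level was 16.4 RPKM in the CYP2 clan, 1.11 in the mitochondrial clan, 2.21 in CYP3 and 0.730 in CYP4. These clan counts and medians cover only rows whose name begins with Cyp. The Halloween genes, which are P450 genes under other symbols and low here, are left out of them. Cyp6d5 and Cyp9f2 led the CYP3 clan, with control means of 119.9 ± 14.5 and 93.2 ± 5.35 RPKM (SD, n = 2). Cyp4g1 and Cyp4e2 led CYP4, with 75.7 ± 3.0 and 34.7 ± 3.39 RPKM. The other genes among the 10 highest in the control were Cyp309a2 at 59.3 ± 3.19, Cyp49a1 at 53.7 ± 6.22, Cyp6u1 at 47.5 ± 1.91 and Cyp28a5 at 32.3 ± 1.94 RPKM. Of these, Cyp309a2, Cyp49a1 and Cyp6u1 did not pass the test in any comparison.

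The next question was which P450 genes differed between embryos with a dacapo transgene and the control. Control embryos carried no UAS transgene, so an effect of dacapo and other differences between the fly lines cannot be told apart here. In total 16 of the 50 tested P450 genes were called with limma (adjusted p under 0.05 after Benjamini-Hochberg adjustment over all 10396 genes tested) in at least 1 of the 4 comparisons, or 32.0%, beside 15.4% of all genes tested. Of the 16, 10 were higher and 6 were lower, and none was higher in 1 form and lower in another. The called genes comprised 11 of the CYP3 clan, 4 of CYP4, 1 mitochondrial gene and 0 of the CYP2 clan, where 1 gene, Cyp304a1, had an unadjusted p under 0.05. The comparisons share the 2 control libraries, so calls that recur across forms are not independent.

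In dap 8 P450 genes were called, or 16% of those tested, beside 11.8% of all genes, which is near the background. Of these 5 were higher, beside 8.53% of all genes, and 3 lower, beside 3.27%. In dapCRL4 8 were called, or 16%, beside 1.45% of all genes, with 6 higher (1.03% of all genes) and 2 lower (0.423%). In dapPCNA 8 were called, beside 1.3% of all genes, with 6 higher (0.741%) and 2 lower (0.558%). In dapCDI 12 were called, or 24%, beside 7.56% of all genes, with 7 higher (4.73%) and 5 lower (2.83%). After a correction for exon length 6 of 50 were called in dap, 3 higher and 3 lower, beside 4.31% of all genes, so the reading in dap depends on that choice. In dapCDI 12 were called with it, 5 higher and 7 lower, beside 4.76%, while dapCRL4 had 10 beside 2.4% and dapPCNA 9 beside 2.15%. The correction ended the calls of Cyp6a13 and Cyp4e2 in dap (adjusted p = 0.0681 and 0.0716) and those of Cyp4p2 and Cyp6a17 in dapCDI (0.107 and 0.0667). The median log2 change of the tested P450 genes was 0.16 in dap where that of all genes was 0.06. It was 0.07 in dapCRL4 beside 0.04 for all genes, 0.14 in dapPCNA beside 0.00, and 0.14 in dapCDI beside 0.04. None of the 4 tested P450 genes that lay under 1 RPKM in both controls, Cyp4p3, Cyp6t3, Cyp9h1 and Cyp311a1, was called. These counts rest on few libraries. Without control 2 the count was 1 in dap beside 0.654% of all genes and 3 in dapCDI beside 0.914%, and it was 2 in dapCRL4 beside 0.529% and 4 in dapPCNA beside 0.683%, so the calls over all genes dropped as well. The count in dap fell without either dap, dapPCNA or control library, and that in dapCRL4 without either dapCRL4 or control library. In dapPCNA it fell without any library other than those of dapCDI, and in dapCDI without any library other than dapCDI 2. The share of all genes called fell in each of these fits as well. Without dapCDI 2 the count in dapCDI did not fall, but the share of all genes rose to about that of the P450 genes.

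**Figure D2:**
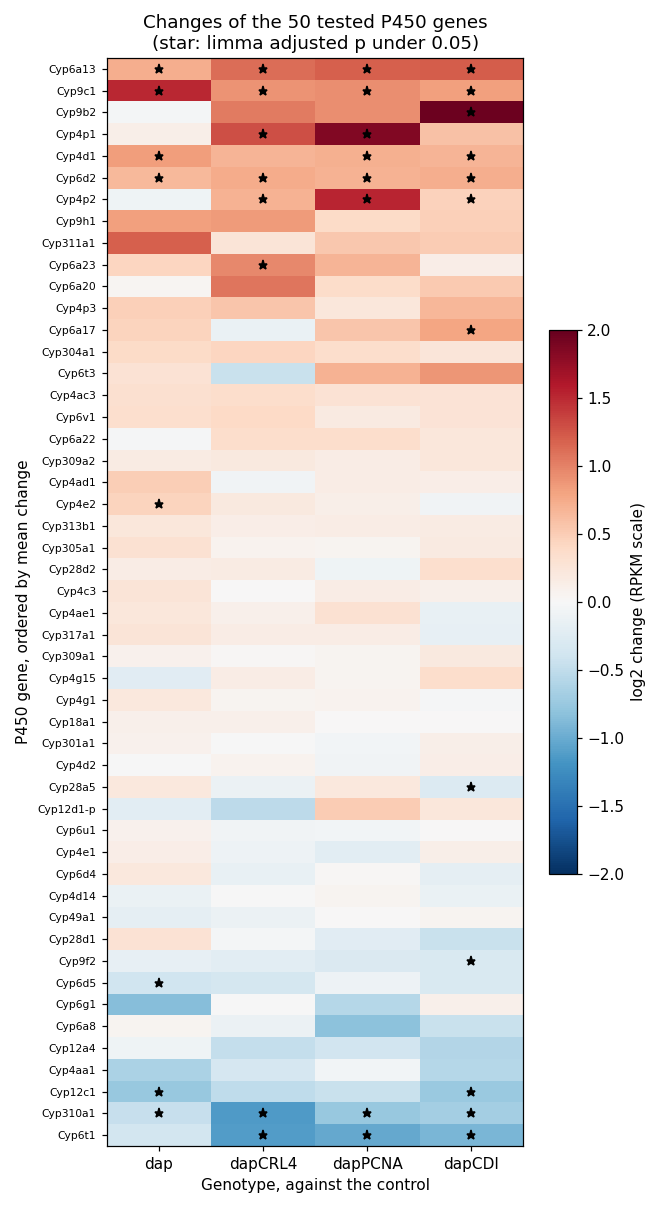
Changes of the 50 tested P450 genes in each dacapo form against the control, as log2 differences on the RPKM scale, with red for higher and blue for lower and a star for a limma adjusted p under 0.05. Genes are ordered by their mean change. Cyp6a13, Cyp9c1, Cyp6d2 and Cyp310a1 carry a star in all 4 columns.

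Only 4 P450 genes were called in all 4 comparisons with the control, or 8.0% of those tested beside 0.616% of all genes (64 genes). These were Cyp9c1, Cyp6a13 and Cyp6d2, which rose, and Cyp310a1, which fell. All 4 belong to the CYP3 clan.

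Cyp9c1 (FBgn0015040, arm 2R, positions 24631063 to 24632923, plus strand) had 24.9 and 22.0 RPKM in dap embryos, 14.8 and 16.2 in dapCRL4 embryos, 16.1 and 15.4 in dapPCNA embryos and 14.5 and 14.7 in dapCDI embryos, against 8.63 and 7.90 RPKM in control embryos. Its dap libraries were the highest, the 3 stabilized forms lay in between, and no transgene library overlapped the control. The log2 change against the control was 1.5 in dap (limma adjusted p = 4.95e-05), 0.90 in dapCRL4 (0.00129), 0.93 in dapPCNA (0.00108) and 0.82 in dapCDI (0.00219), each with an SE of 0.0963. Its exons overlap those of the antisense RNA gene CR43787, which had 10 and 12.4 RPKM in dap embryos, 7.97 and 7.90 in dapCRL4 embryos, 7.34 and 10.2 in dapPCNA embryos and 7.25 and 5.51 in dapCDI embryos, against 6.12 and 4.65 RPKM in control embryos. The antisense row was itself called in dap (log2 change 1.06, limma adjusted p = 0.0191). Since counting by strand is not stated, reads of these 2 genes cannot be told apart.

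Cyp6a13 (FBgn0033304, arm 2R, positions 8570499 to 8572147, plus strand) had 6.43 and 6.22 RPKM in dap embryos, 8.72 and 7.76 in dapCRL4 embryos, 8.80 and 8.71 in dapPCNA embryos and 7.76 and 9.94 in dapCDI embryos, against 4.06 and 3.58 RPKM in control embryos. All transgene libraries lay above both controls, and both dap libraries were lower than the other 6. The log2 change was 0.73 in dap (limma adjusted p = 0.0189), 1.11 in dapCRL4 (0.00369), 1.20 in dapPCNA (0.00218) and 1.20 in dapCDI (0.00199), with an SE of 0.139. The call in dap was lost without dap 2, control 1 or control 2 (highest adjusted p 0.128), and the call in dapCRL4 without control 2 (0.0501).

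Cyp6d2 (FBgn0034756, arm 2R, positions 22652573 to 22654530, minus strand), a gene linked to resistance to camptothecin, had 17.8 and 24 RPKM in dap embryos, 21.0 and 22.7 in dapCRL4 embryos, 21.4 and 20.9 in dapPCNA embryos and 23.2 and 20.0 in dapCDI embryos, against 13.4 and 12.8 RPKM in control embryos. The 8 transgene libraries overlapped one another and lay above both controls. The log2 change was 0.66 in dap (limma adjusted p = 0.0215), 0.74 in dapCRL4 (0.0292), 0.69 in dapPCNA (0.0400) and 0.72 in dapCDI (0.0236), with an SE of 0.134. Each of these calls was lost without either control library, and those in dap and dapCDI also without dap 2 or dapCDI 1. Those in dapCRL4 and dapPCNA were also lost without either library of dapCRL4 or dapPCNA, with adjusted p up to 0.248. The overlapping gene nsr on the other strand ran from 2.56 to 3.73 RPKM and was not called.

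Cyp310a1 (FBgn0032693, arm 2L, positions 18651058 to 18653010, minus strand) had 13.1 and 15.0 RPKM in dap embryos, 8.87 and 8.59 in dapCRL4 embryos, 11.8 and 10.9 in dapPCNA embryos and 12.3 and 11.7 in dapCDI embryos, against 18.9 and 19.5 RPKM in control embryos. Both controls were the highest, the dapCRL4 libraries the lowest, and no transgene library overlapped the control. The gene fell by 0.46 on the log2 scale in dap (limma adjusted p = 0.0244), by 1.14 in dapCRL4 (0.000348), by 0.77 for dapPCNA (0.00356) and by 0.68 in dapCDI (0.00791), with an SE of 0.0978. The call in dap was lost without either dap library or either control (highest adjusted p 0.150). That in dapPCNA was lost without control 2 (0.0506), and that in dapCDI without either control (0.0696 at most).

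**Figure D3:**
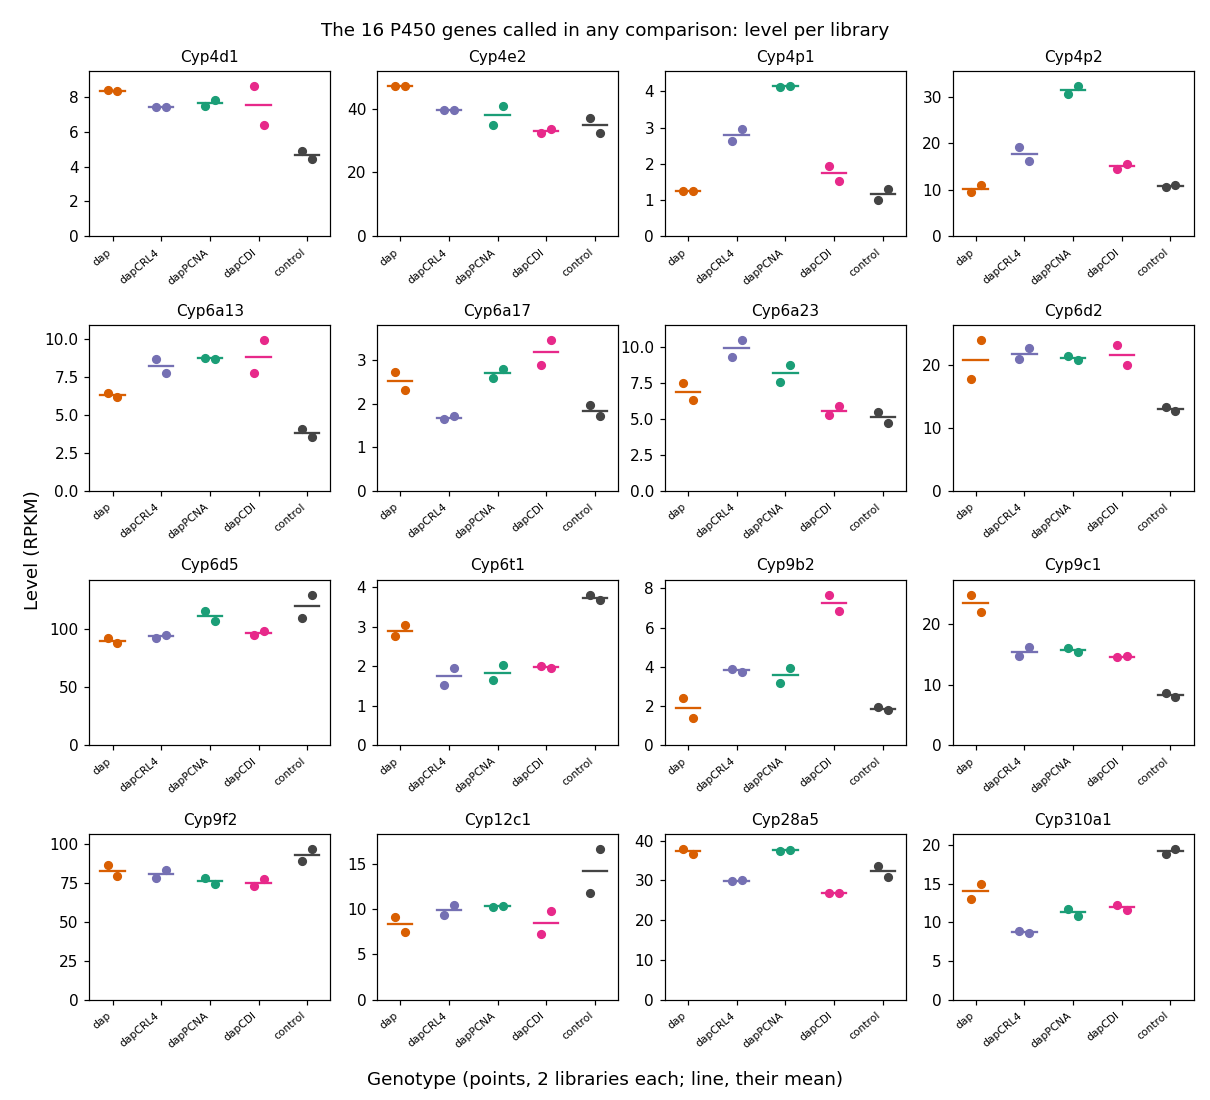
Levels of the 16 called P450 genes, with 1 panel per gene, RPKM from 0 on the vertical axis and the 5 genotypes on the horizontal axis. Points are the 2 libraries of a genotype and the line is their mean. Cyp9c1 and Cyp6a13 lie above the control in every transgene library and Cyp310a1 below it, while Cyp4p1 and Cyp4p2 are highest in dapPCNA and Cyp9b2 in dapCDI.

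Cyp4d1 (FBgn0005670, arm X, positions 2159145 to 2162180, minus strand) was called higher in 3 of the 4 forms. It had 8.38 and 8.29 RPKM in dap embryos, 7.42 and 7.41 in dapCRL4 embryos, 7.48 and 7.81 in dapPCNA embryos and 8.62 and 6.38 in dapCDI embryos, against 4.90 and 4.42 RPKM in control embryos. All transgene libraries lay above the control, and the 2 dapCDI libraries spanned the others. The log2 change was 0.84 in dap (limma adjusted p = 0.0141), 0.72 in dapPCNA (0.0452) and 0.67 in dapCDI (0.0343), while the 0.67 in dapCRL4 missed the threshold (0.0557). Each of the 3 calls was lost without control 2, and that in dapPCNA without any library other than those of dapCDI, with adjusted p up to 0.302. The calls in dap and dapCDI were lost also without dap 2 or without dapCDI 1, with adjusted p up to 0.156, and that in dapCDI without control 1 or any library of dapCRL4 or dapPCNA.

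Cyp6t1 (FBgn0031182, arm X, positions 21517434 to 21519218, minus strand) was lower in the 3 stabilized forms. It had 2.75 and 3.03 RPKM in dap embryos, 1.52 and 1.96 in dapCRL4 embryos, 1.65 and 2.03 in dapPCNA embryos and 1.99 and 1.96 in dapCDI embryos, against 3.81 and 3.66 RPKM in control embryos, or about 53.7 to 174 estimated reads. The controls were the highest, the dap libraries were next, and the stabilized forms overlapped one another. The gene fell by 1.12 on the log2 scale in dapCRL4 (limma adjusted p = 0.0250), by 1.03 in dapPCNA (0.0390) and by 0.92 in dapCDI (0.0353), and the log2 change of −0.37 in dap did not pass (0.223). All 3 calls were lost without either control library, at adjusted p up to 0.230. They were also lost without either dapCRL4 library in dapCRL4, without either dap or dapPCNA library in dapPCNA, and without dapCDI 1 or either dapPCNA library in dapCDI. The differences between each stabilized form and dap did not pass the test.

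Cyp12c1, the only called mitochondrial gene (FBgn0036806, arm 3L, positions 18684259 to 18686319, minus strand), was lower in dap and dapCDI. It had 9.14 and 7.52 RPKM in dap embryos, 9.36 and 10.5 in dapCRL4 embryos, 10.3 and 10.4 in dapPCNA embryos and 7.26 and 9.77 in dapCDI embryos, against 11.8 and 16.7 RPKM in control embryos. Control 2 stood above all other libraries, and control 1 lay close to dapCRL4 and dapPCNA. The gene fell by 0.76 on the log2 scale in dap (limma adjusted p = 0.0344). In dapCDI it fell by 0.74 (0.0479). The call in dap was lost without dap 2, control 2 or either dapPCNA library, at adjusted p up to 0.202. That in dapCDI was lost without every library except dapCDI 2, at up to 0.261.

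The abundant genes Cyp6d5, Cyp9f2, Cyp4e2 and Cyp28a5 had smaller changes. Cyp6d5, which caffeine induces in adult flies, had 93.0 and 87.9 RPKM in dap embryos, 92.3 and 95.5 in dapCRL4 embryos, 116 and 108 in dapPCNA embryos and 95 and 98.9 in dapCDI embryos, against 109.7 and 130.1 RPKM in control embryos. Control 1 lay between the dapPCNA libraries, and the gene fell by 0.40 on the log2 scale in dap (limma adjusted p = 0.0242). Cyp9f2 had 86.6 and 79.5 RPKM in dap embryos, 78.3 and 83.1 in dapCRL4 embryos, 78.1 and 74.6 in dapPCNA embryos and 72.9 and 77.4 in dapCDI embryos, against 89.4 and 97.0 RPKM in control embryos. It fell by 0.31 in dapCDI (limma adjusted p = 0.0454), where both libraries lay below both controls. Cyp4e2 had 47.1 and 47.1 RPKM in dap embryos, 39.5 and 39.5 in dapCRL4 embryos, 34.8 and 40.9 in dapPCNA embryos and 32.3 and 33.5 in dapCDI embryos, against 37.1 and 32.3 RPKM in control embryos, and rose in dap by a log2 change of 0.44 (limma adjusted p = 0.0236). Cyp28a5 had 37.9 and 36.7 RPKM in dap embryos, 29.7 and 30 in dapCRL4 embryos, 37.5 and 37.6 in dapPCNA embryos and 26.8 and 26.7 in dapCDI embryos, against 33.7 and 30.9 RPKM in control embryos. The dapCDI libraries were the lowest, and the gene fell by 0.27 in dapCDI (limma adjusted p = 0.0490). The Cyp6d5 call was lost without dap 2 or control 2 (0.155 at most), and the Cyp4e2 call without either dap library or control 2 (0.159). The Cyp9f2 call was lost without dapCDI 1 or any library of dapCRL4, dapPCNA or the control (0.201), and the Cyp28a5 call without any library but dapCDI 2 (0.249).

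Of the 81 P450 genes 43 lay in 15 clusters of neighbouring P450 genes with gaps under 10 kb, and arm 2R alone carried 34 P450 genes, of which 24 were tested and 9 called against the control. The called genes of the other arms were 2 of 7 tested on 2L, 1 of 2 on 3L, 2 of 7 on 3R and 2 of 10 on X, and 15.4% of all genes tested on any arm were called. Neighbours in a cluster resemble one another in sequence, so their values are not independent. In 5 clusters at least 1 member was called.

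The Cyp4p cluster on arm 2R had 2 genes called higher than the control in stabilized forms and not in dap. It holds Cyp4p2 (FBgn0033395, arm 2R, positions 9237512 to 9239831, plus strand), Cyp4p1 (FBgn0015037, arm 2R, positions 9240041 to 9242139, plus strand) and Cyp4p3 (FBgn0033397, arm 2R, positions 9242320 to 9244410, plus strand). Cyp4p2 had 9.49 and 11.1 RPKM in dap embryos, 19.1 and 16.3 in dapCRL4 embryos, 30.7 and 32.4 in dapPCNA embryos and 14.5 and 15.7 in dapCDI embryos, against 10.7 and 11.1 RPKM in control embryos. The dap libraries matched the control, dapCRL4 and dapCDI were higher, and both dapPCNA libraries were the highest. The stabilized forms were not tested against one another. The log2 change against the control was 1.53 in dapPCNA (limma adjusted p = 0.000137), 0.69 in dapCRL4 (0.0144) and 0.47 in dapCDI (0.0443), and −0.09 in dap (0.597), with an SE of 0.110. The dapCRL4 call was lost without dapCRL4 1 or either control (0.116 at most), and the dapCDI call without any library but those of dap (0.190).

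Cyp4p1, the neighbour of Cyp4p2 on the same strand, had 1.25 and 1.24 RPKM in dap embryos, 2.64 and 2.97 in dapCRL4 embryos, 4.12 and 4.15 in dapPCNA embryos and 1.94 and 1.53 in dapCDI embryos, against 1.01 and 1.31 RPKM in control embryos. The 3 stabilized forms stood in the same order as for Cyp4p2, and dap overlapped the control. It rose in dapPCNA by a log2 change of 1.85 (limma adjusted p = 0.00229) and in dapCRL4 by 1.29 (0.0189), and the 0.59 in dapCDI did not pass (0.104), with an SE of 0.217. The dapCRL4 call was lost without either dapCRL4 library or either control (0.181 at most). Cyp4p3, at 0.793 to 1.36 RPKM, was not called in any comparison.

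Cyp9b2 (FBgn0015039, arm 2R, positions 7130277 to 7132139, minus strand) was higher in dapCDI. It had 2.41 and 1.38 RPKM in dap embryos, 3.91 and 3.75 in dapCRL4 embryos, 3.17 and 3.95 in dapPCNA embryos and 7.69 and 6.83 in dapCDI embryos, against 1.97 and 1.77 RPKM in control embryos. Both dapCDI libraries were far above all others, dapCRL4 and dapPCNA lay between them and the control, and dap overlapped the control. The log2 change was 1.95 in dapCDI (SE 0.244, limma adjusted p = 0.00332). Neither 1.03 in dapCRL4 nor 0.92 in dapPCNA passed (0.0806 and 0.143).

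The largest cluster, on arm 2R between Cyp6a22 and Cyp317a1, holds 9 P450 genes, of which 6 were tested and 2 called. Cyp6a23 (FBgn0033978, arm 2R, positions 14875829 to 14877654, plus strand) had 7.49 and 6.30 RPKM in dap embryos, 9.31 and 10.5 in dapCRL4 embryos, 7.57 and 8.72 in dapPCNA embryos and 5.23 and 5.88 in dapCDI embryos, against 5.48 and 4.71 RPKM in control embryos. It rose in dapCRL4, the genotype with its highest values, by a log2 change of 0.96 (limma adjusted p = 0.0103). The neighbouring Cyp6a17, which affects temperature preference, had 2.73 and 2.32 RPKM in dap embryos, 1.66 and 1.71 in dapCRL4 embryos, 2.59 and 2.80 in dapPCNA embryos and 2.90 and 3.46 in dapCDI embryos, against 1.96 and 1.72 RPKM in control embryos. It rose in dapCDI by 0.78 (limma adjusted p = 0.0449), and in dapCRL4 its libraries lay below both controls, 1 of them only just. Cyp6a20, a gene linked to aggression, had 4.25 and 3.08 RPKM in dap embryos, 7.48 and 7.38 in dapCRL4 embryos, 3.66 and 5.61 in dapPCNA embryos and 5.30 and 4.81 in dapCDI embryos, against 3.92 and 3.18 RPKM in control embryos, and its log2 change of 1.07 in dapCRL4 did not pass (0.0506). The Cyp6a23 call was lost without dapCRL4 2 or control 2 (0.115 at most), and the Cyp6a17 call without any library but those of dap (0.165).

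**Figure D4:**
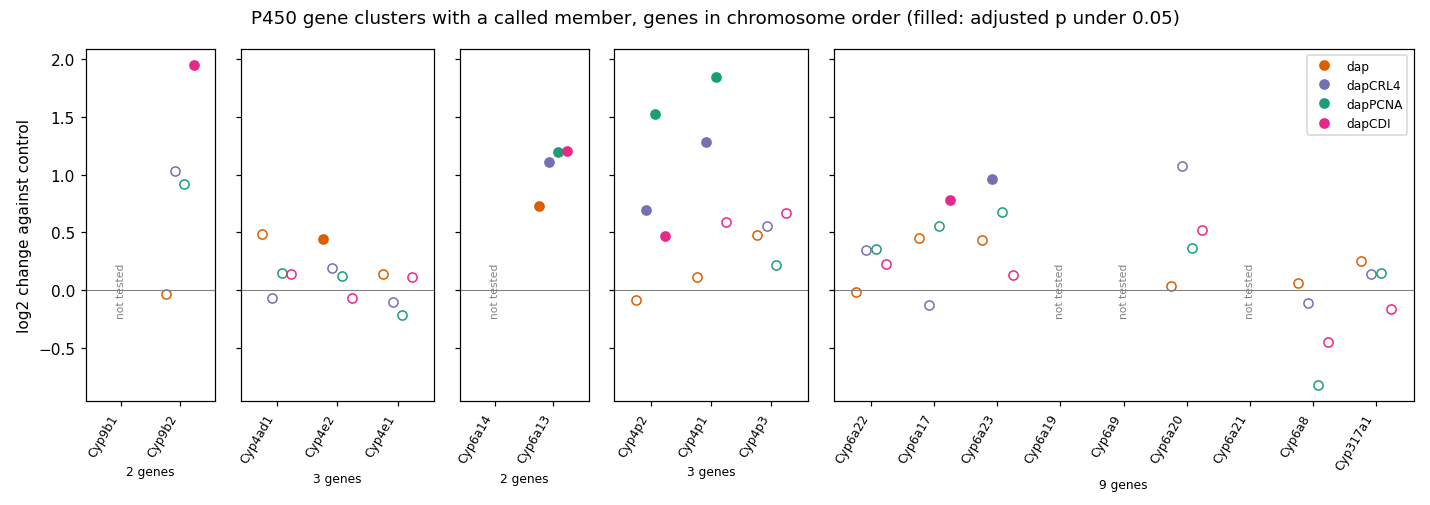
Changes against the control in the 5 P450 clusters with a called member, with genes in chromosome order on the horizontal axis and the log2 change on the vertical axis. Colours are the 4 dacapo forms, and filled points passed the test at a limma adjusted p under 0.05. In the Cyp4p cluster dapPCNA is the highest at Cyp4p2 and Cyp4p1 and not at Cyp4p3.

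Each stabilized form was also compared with wild-type dacapo. Against dap 2 P450 genes were called in dapCRL4 (limma), beside 0.164% of all genes, 3 in dapPCNA beside 1.33%, and 3 in dapCDI beside 0.144%. In dapCRL4 1 was higher and 1 lower, beside 0.0481% and 0.115% of all genes. In dapPCNA 2 were higher and 1 lower, beside 0.346% and 0.981%, and in dapCDI 1 was higher and 2 lower, beside 0.0577% and 0.0866%. In dapCRL4 Cyp4p2 was higher than in dap, with a log2 change of 0.78 (limma adjusted p = 0.0326), and Cyp310a1 was lower by 0.68 (0.0326). In dapPCNA Cyp4p1 was higher than in dap, with 1.73 (0.00986), as was Cyp4p2, with 1.62 (0.000581), and Cyp9c1 was lower by 0.57 (0.0278). In dapCDI Cyp9b2 was higher than in dap, with 1.99 (0.0306), while Cyp9c1 was lower by 0.68 (0.0475) and Cyp28a5 by 0.48 (0.0494).

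The counts against dap moved with single libraries. In dapCRL4 the count was 0 without dap 2 or either control, dapCRL4 or dapPCNA library, with 10 to 18 P450 genes at an unadjusted limma p under 0.05. In dapPCNA the count, like the share of all genes called, rose without either dapCDI library. Both fell without dap 2 or any library of dapCRL4, dapPCNA or the control. In dapCDI it was 1 without dap 1 or dapCDI 2 and 0 without any other library, with 11 to 14 P450 genes at an unadjusted p under 0.05. Only the difference of Cyp4p2 between dapPCNA and dap was kept without each library in turn. That of Cyp4p1 was lost without dap 2 or either dapPCNA library (0.0888 at most). The other differences from dap were all lost without either control, dapCRL4 or dapPCNA library, and without dap 2. In dapCDI those of Cyp9c1 and Cyp28a5 were lost without any single library, and that of Cyp9b2 also without dapCDI 1. Without dap 1 those of Cyp4p2 in dapCRL4 and Cyp9c1 in dapPCNA were lost too. Over all 5 genotypes together, limma's moderated F test called 11 tested P450 genes, beside 3.09% of all genes. This count and the share of all genes called both rose without either dapCDI library and fell without any other. The called genes included Cyp9c1 (adjusted p = 0.000508), Cyp4p2 (0.000358), Cyp310a1 (0.00234), Cyp6a13 (0.00538) and Cyp4p1 (0.00565). The median range of a gene over the 10 libraries was 0.77 log2 for the tested P450 genes and 0.46 for all genes tested.

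P450 enzymes work with electron donors, and 7 rows of that list were tested. Of these 4 were called in dap, beside 11.8% of all genes, and 2 in dapCDI, beside 7.56%. In dapCRL4 and dapPCNA 1 each was called, beside 1.45% and 1.3%. Fdx2, listed as CG1319 and encoding a mitochondrial ferredoxin, had 135 and 135 RPKM in dap embryos, 129 and 138 in dapCRL4 embryos, 121 and 122 in dapPCNA embryos and 129 and 119 in dapCDI embryos, against 95.4 and 89.7 RPKM in control embryos. All transgene libraries lay above both controls, and the gene was called higher in all 4 forms, with log2 changes of 0.55 in dap (limma adjusted p = 0.00331), 0.53 in dapCRL4 (0.00437), 0.40 in dapPCNA (0.0218) and 0.42 in dapCDI (0.0130). Outside dap these calls were lost without control 2, in dapCRL4 also without dapCRL4 2, in dapPCNA without control 1 or either dapPCNA library, and in dapCDI without control 1 or dapCDI 1 (adjusted p up to 0.188). With the correction for exon length the log2 change was 0.29 in dap and 0.21 in dapCDI, and all 4 calls were kept. Cpr, the reductase of the endoplasmic reticulum, ran from 47.5 to 52.5 RPKM and was not called.

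The list of electron donors held 3 further called genes. In dap Cyt-b5-r rose by a log2 change of 0.66 (limma adjusted p = 0.0224) and dare, the reductase of the mitochondrial branch, by 0.35 (0.0455). The gene CG6870, annotated among cytochrome b5 genes, fell by 1.38 in dap (0.0267) and by 1.80 in dapCDI (0.0177), at 1.27 to 6.69 RPKM in all libraries. In dapCRL4 dare was lower than in dap by 0.66 (0.0326). Each of these calls was lost without control 2, among other libraries, and the adjusted p reached 0.270 over the libraries left out. The correction for exon length also ended the calls of Cyt-b5-r and dare in dap (0.0770 and 0.114).

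Regulators of xenobiotic genes had 1 called member of 7 tested in dap and in dapCDI, a share near that of all genes (11.8% in dap and 7.56% in dapCDI). EcR, the ecdysone receptor, had 32.6 and 31.5 RPKM in dap embryos, 41.5 and 34.8 in dapCRL4 embryos, 41.2 and 38.2 in dapPCNA embryos and 28.9 and 35.0 in dapCDI embryos, against 44.0 and 43.0 RPKM in control embryos, and fell by 0.44 on the log2 scale in dap (limma adjusted p = 0.0357). In dapCDI it fell by 0.45 (0.0451). Both calls were lost without either control, among other libraries (adjusted p up to 0.229). With the correction for exon length the log2 change was −0.11 in dap (0.478) and −0.11 in dapCDI (0.426), and neither passed. Hr96, a nuclear receptor of the response to foreign chemicals, ran from 12 to 13.9 RPKM and was not called, nor were cnc and Keap1.

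Whole embryos hold all the tissues in which P450 genes are active. The summed level of 6 nervous system markers, of which 5 had rows and 4 were tested, was 97.6 and 139 RPKM in dap embryos, 124 and 143 in dapCRL4 embryos, 124 and 133 in dapPCNA embryos and 81.9 and 115.4 in dapCDI embryos, against 152 and 158 RPKM in control embryos. All transgene libraries lay below both controls, and elav, a neuronal RNA-binding protein gene, was called lower in dapCDI (log2 change −0.83, limma adjusted p = 0.0479). The midgut sum also lay lower in all transgene libraries, at 259 to 294 RPKM for 11 markers, against 296 and 299 RPKM in the control. For 9 markers of Malpighian tubule and hindgut the sum was 646 and 576 RPKM in dap embryos and 629 to 663 RPKM in the stabilized forms, against 582 and 621 RPKM in control embryos. For 8 fat body markers it was 1335 and 1444 RPKM in dap embryos and 1430 to 1594 RPKM in the stabilized forms, against 1422 and 1348 RPKM in control embryos. In both lists 7 of the 8 transgene libraries lay above both controls in this sum, and 1 dap library lay below both. Most medians over the tested markers showed no such rise. For the 8 tested tubule and hindgut markers, median log2 shifts from the control were −0.20 for dap and −0.03 for dapCRL4. For dapPCNA and dapCDI they were −0.02 and −0.01. The 6 tested fat body markers had medians of −0.01, 0.11, 0.01 and −0.01, with the forms in the same order. The sums of the other lists overlapped between the transgene and control libraries, at 3161 to 3607 RPKM for 8 tracheal markers, 141 to 162 for 4 oenocyte markers and 183 to 241 for 7 epidermal markers. The oenocyte list includes the P450 gene Cyp4g1, so its sum is not separate from the P450 levels. Every list had at least 1 called marker. Of the 42 markers tested 10 were called in dap, or 23.8%, beside 11.8% of all genes. There Adh, Cht2 and ZnT35C were higher and Cg25C, Rfabg, ct, pio, ple, srp and svp were lower. In dapCDI 5 were called, or 11.9%, beside 7.56% of all genes, with Adh, Cht2 and ZnT35C higher and elav and pio lower. ZnT35C was also higher in dapCRL4 and dapPCNA, and pio lower in dapPCNA. Those were 1 called marker in dapCRL4 and 2 in dapPCNA, beside 1.45% and 1.3% of all genes. No list had a marker at 0 in all libraries. The part of these shifts in the P450 results was not tested.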

How the data were processed

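The deposited table holds 1 log2 RPKM value per gene and library, made by the authors from single reads of 50 bases of polyA RNA, per the file headers and the labels' protocols, on genome build BDGP6 per the submitters' processing notes. Which aligner, counter, annotation release and strand setting were used is not stated in the labels or the file. Rows with no reads carry a floor of −9.11 and are listed at 0 RPKM. Library depth was estimated from the whole-number steps of genes with few reads, at 17.0 to 25.6 counted megareads, and estimated reads are described on that basis only. At the chosen depth only 15.7% to 18.5% of such genes fell within 0.02 reads of a whole number. Estimated reads are therefore approximate. The labels give a yield between 20.7 and 43.4 megareads.

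Genes with 1 RPKM or more in 2 or more of the 10 libraries (10396 of 15422) were fitted on the deposited log2 values with limma 3.58.1 in R 4.3.3, fitting a mean for each genotype on all 10 libraries together, with a mean-variance trend. Tests were two-sided and moderated, p-values were adjusted by Benjamini-Hochberg across every gene tested in a comparison, and genes were called at an adjusted p under 0.05. The procedure was tested on simulated data. Each dacapo form was compared with the control, each stabilized form with dap, and all 5 genotypes with a moderated F test. With 2 libraries per genotype the p-values rest on a spread pooled over genotypes. The labels call the libraries independent samples without saying what separates them.

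Positions and exon overlaps came from the Ensembl 115 annotation of BDGP6. Of the row names 11229 matched by symbol, 2989 by an older symbol and 1204 not at all, and every P450 row matched. Members and gene lists were chosen with earlier results of these data known. Named genes were every called P450 gene, the 10 highest in the control and 8 with known roles. Cyp6a20, Cyp4p3 and the other P450 genes named beside these were chosen after their values were seen. Alternatives were log2(RPKM + 1), no filter, a mean of 5 RPKM or more, quantile normalization, median centring, no trend, a replicate block, only the groups compared, an exon length correction (lowess span 0.3), genes above the floor in every library, and each library left out in turn. Python 3.11.15 with pandas 2.3.3 and numpy 2.4.6 summarised the values, and matplotlib 3.10.9 drew the figures.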

Additional observations from a re-analysis of the deposited data

Results flagged for a closer look

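Cyp9b1, the neighbour of Cyp9b2, was too low to be tested, and a signal appeared in it outside the comparisons. It was listed at 0.128 and 0.0964 RPKM in dap embryos, 0.133 and 0.0878 in dapCRL4 embryos, 0.154 and 0.0373 in dapPCNA embryos and 0.0773 and 0.133 in dapCDI embryos, against 0 in both control libraries. The highest value, 0.154 RPKM, corresponds to about 5.7 estimated reads and the lowest transgene value to about 1.2. Its exons overlap those of esn on the other strand.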

How the results depend on the processing

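Of 44 called P450 values, 9 kept their call under all alternatives that gave a value, 35 lost it under at least 1, and 0 changed sign. The 9 were Cyp9c1 in dap, dapCRL4 and dapPCNA, Cyp310a1 in dapCRL4, Cyp4p1, Cyp4p2 and Cyp6a13 in dapPCNA, Cyp9b2 in dapCDI, and Cyp4p2 in dapPCNA against dap. Without a mean-variance trend limma called 3 P450 genes in dap and 6 in dapCDI against the control, beside 1.86% and 1.34% of all genes. Against dap it called 0 in dapCRL4 and 0 in dapCDI, beside 0.077% and 0.0289%. In a fit of only the groups compared 1 was called in dapCDI against the control, beside 0.414%. Against dap that fit called 0 in dapCRL4 and 0 in dapCDI, beside 0% and 0.00962%. At an unadjusted p under 0.05 these counts of 0 stood at 11 to 18 genes. Without a filter 7 were called in dapCDI against the control, beside 1.8% of all genes. Quantile normalization gave 1 in dapCRL4 against dap, beside 0.212%. Over the fits that left out 1 library, counts against the control ran from 1 to 9 in dap (all genes 0.654% to 21.4%) and from 3 to 12 in dapCDI (0.75% to 25%). They ran from 2 to 10 in dapCRL4 (0.529% to 2.86%) and from 4 to 8 in dapPCNA (0.683% to 1.67%). Against dap the range was 1 to 6 for dapPCNA, 0 to 3 for dapCRL4 and 0 to 1 for dapCDI. The F test called 6 to 17. Fewer libraries also give less power. The cause of the other shifts was not tested.

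Same-numbered libraries did not deviate together over all genes tested (correlations of −0.053 to 0.089 over 10 pairs of genotypes). Such correlations cannot exclude a pairing or batch that acts on part of the genes. With a replicate block, 7 P450 genes were called in dapCDI against the control, beside 2.43% of all genes. Against dap 0 were called in dapCRL4 (18 at an unadjusted p under 0.05) and 1 in dapCDI, beside 0.077% and 0.0673%. The other counts stayed within 1.5 times. Levels near 1 RPKM rest on few reads, down to about 11.2 estimated reads for Cyp6t3.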

Other observations

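Other genes of hydrocarbon synthesis were also examined. Of 11 tested genes of that list, 4 were called by limma in dap, beside 11.8% of all genes, where Hacd1 (listed as CG6746), Hacd2 (CG9267) and Sc2, enzymes of fatty acid elongation, rose, and svp, a nuclear receptor gene, fell. Each of these calls was lost without dap 2 or either control and with the correction for exon length, where the log2 change of Hacd1 was 0.07 and that of Sc2 was 0.12. In dapCDI only Hacd2 was called, higher than in the control, beside 7.56% of all genes, and that call too was lost with the correction. Hacd2 had 52.2 and 48.0 RPKM in dap and 51.0 and 46.9 in dapCDI, against 39.4 and 39.1 RPKM in the control. Among genes of juvenile hormone synthesis, breakdown and response, 6 of 8 were tested and 0 were called in any comparison with limma, with 3 at an unadjusted p under 0.05 against the control. In this list the hydrolase gene Jheh3 ran from 82.8 to 116 RPKM and the response gene Kr-h1 from 88.6 to 111 RPKM.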
